A study of Homo sapiens with 54 samples.

Results

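Genes of the epithelial-mesenchymal transition (EMT) were followed by RNA-seq in colorectal cancer cells that were sensitive or resistant to 5-fluorouracil (5-FU). The set held 10 genes chosen by symbol, CDH1, CDH2, VIM, ZEB1, ZEB2, SNAI1, SNAI2, FN1, ESRP1 and ESRP2, and all 10 were found among the 59368 genes of the tables.

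In EMT, epithelial cells lose their junctions and polarity and take on a mesenchymal, more migratory state. E-cadherin, encoded by CDH1, holds epithelial cells together, and its loss alongside a gain of N-cadherin (CDH2), vimentin (VIM) and fibronectin (FN1) is the usual molecular sign of the change. Zinc finger repressors of the ZEB and SNAIL families bind E-box sequences and shut down CDH1, while the splicing regulators ESRP1 and ESRP2 keep epithelial isoforms of genes such as CD44, CTNND1 and ENAH in use. EMT has been studied in colorectal cancer as a feature of invasive and drug-resistant cells.

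The cells were DLD-1, HCT-116 and HT-29, established human colorectal adenocarcinoma or carcinoma lines. Each line was used in its sensitive form and as a resistant derivative grown in stepwise rising 5-FU for months. The resistant cells were then kept in the drug at a dose above the 10 µM used for treatment. Dishes received 10 µM uracil (control) or 10 µM 5-FU for 24 h, and a further group received 10 µM 5-FU and was then irradiated with X-rays at the line's own median lethal dose. The 3 lines, 2 states and 3 treatments made 18 conditions with 3 biological replicates each, that is 54 libraries of poly(A)-selected RNA. There was 1 resistant population for each line, so p-values measured the spread between cultures of that population and not between independent routes to resistance.

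Totals of estimated counts ranged from 38957142 to 218518344 per library with a median of 51373543, and the highest belonged to replicate 2 of sensitive DLD-1 cells in uracil. The libraries labelled resistant HT-29 went against their label. Markers of sensitive HCT-116, defined by 10 TPM or more in that line and no more than 0.1 TPM in sensitive DLD-1 and HT-29, numbered 64, and 62 of them (96.9%) reached 1 TPM in the libraries labelled resistant HT-29 in uracil. Of 12 genes that marked sensitive HT-29 in the same way, 0 (0.0%) did so. TPM is a level corrected for transcript length and depth. Any contrast of these libraries with sensitive HT-29 therefore mixes line and state, which cannot be told apart, and their name is given below with the word "labelled". Of 10 markers of colorectal epithelium, 6 to 9 reached 1 TPM in each condition, against 0 to 2 of 10 fibroblast markers and 0 to 2 of 5 leukocyte markers. The summed fibroblast markers lay between 1.12 and 31.82 TPM, and the summed epithelial markers between 2349 and 14794 TPM.

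The promoters of VIM and ZEB1 are shown because both genes were higher in resistant HCT-116 cells. Each window is the 250 bases before an annotated RefSeq start site (GRCh38.p14) on the plus strand. They were searched for the E-box CAGGTG and its reverse complement CACCTG, with no other motif, and matches are in capitals.
VIM promoter, chr10:17227991-17228240: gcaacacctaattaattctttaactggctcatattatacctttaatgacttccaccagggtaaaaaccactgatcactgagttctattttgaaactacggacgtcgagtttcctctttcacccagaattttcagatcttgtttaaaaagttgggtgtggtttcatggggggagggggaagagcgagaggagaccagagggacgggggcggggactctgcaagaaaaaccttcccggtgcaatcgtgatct
ZEB1 promoter, chr10:31318167-31318416: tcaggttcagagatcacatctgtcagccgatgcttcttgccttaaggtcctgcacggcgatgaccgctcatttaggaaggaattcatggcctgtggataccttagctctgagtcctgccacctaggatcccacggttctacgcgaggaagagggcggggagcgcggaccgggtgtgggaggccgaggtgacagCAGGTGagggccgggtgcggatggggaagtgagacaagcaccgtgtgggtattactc

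The ZEB1 window held 1 E-box, starting 57 bases before the start site, and the VIM window held 0. Across 35116 such windows of all genes, 6143 (17.5%) held the E-box. The table matched 5 of the 10 genes with 12 windows. ZEB1 had 7 windows, of which 2 held the E-box, and the windows of VIM, FN1, ZEB2 and CDH2 held none. CDH1, SNAI1, SNAI2, ESRP1 and ESRP2 had no entry. A match is a description of the letters and not a measured binding site.

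On the GRCh38 build with GENCODE 44, VIM is on chromosome 10 (17228241 to 17237593, plus strand), as is ZEB1 (31318495 to 31529814, plus strand). CDH1 lies on chromosome 16 (68737292 to 68835537, plus strand) near ESRP2 (68229033 to 68238102, minus strand). ZEB2 (144364364 to 144521057) and FN1 (215360440 to 215436073) are on the minus strand of chromosome 2. SNAI1 is on chromosome 20 (49982980 to 49988886, plus strand) and CDH2 on chromosome 18 (27932879 to 28177946, minus strand). SNAI2 (48917598 to 48921740, minus strand) and ESRP1 (94641074 to 94707466, plus strand) are on chromosome 8. Values are for whole genes, summed over all annotated transcripts.

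The 10 genes were expressed at very different levels (TPM). CDH1, SNAI1, FN1, ESRP1 and ESRP2 averaged at least 1 TPM in all 18 conditions. VIM and ZEB1 did so in 9, namely HCT-116 in both states and the libraries labelled resistant HT-29. ZEB2 did so in 2, sensitive HT-29 in 5-FU with and without irradiation, and CDH2 and SNAI2 in 0.

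**Figure D1:**
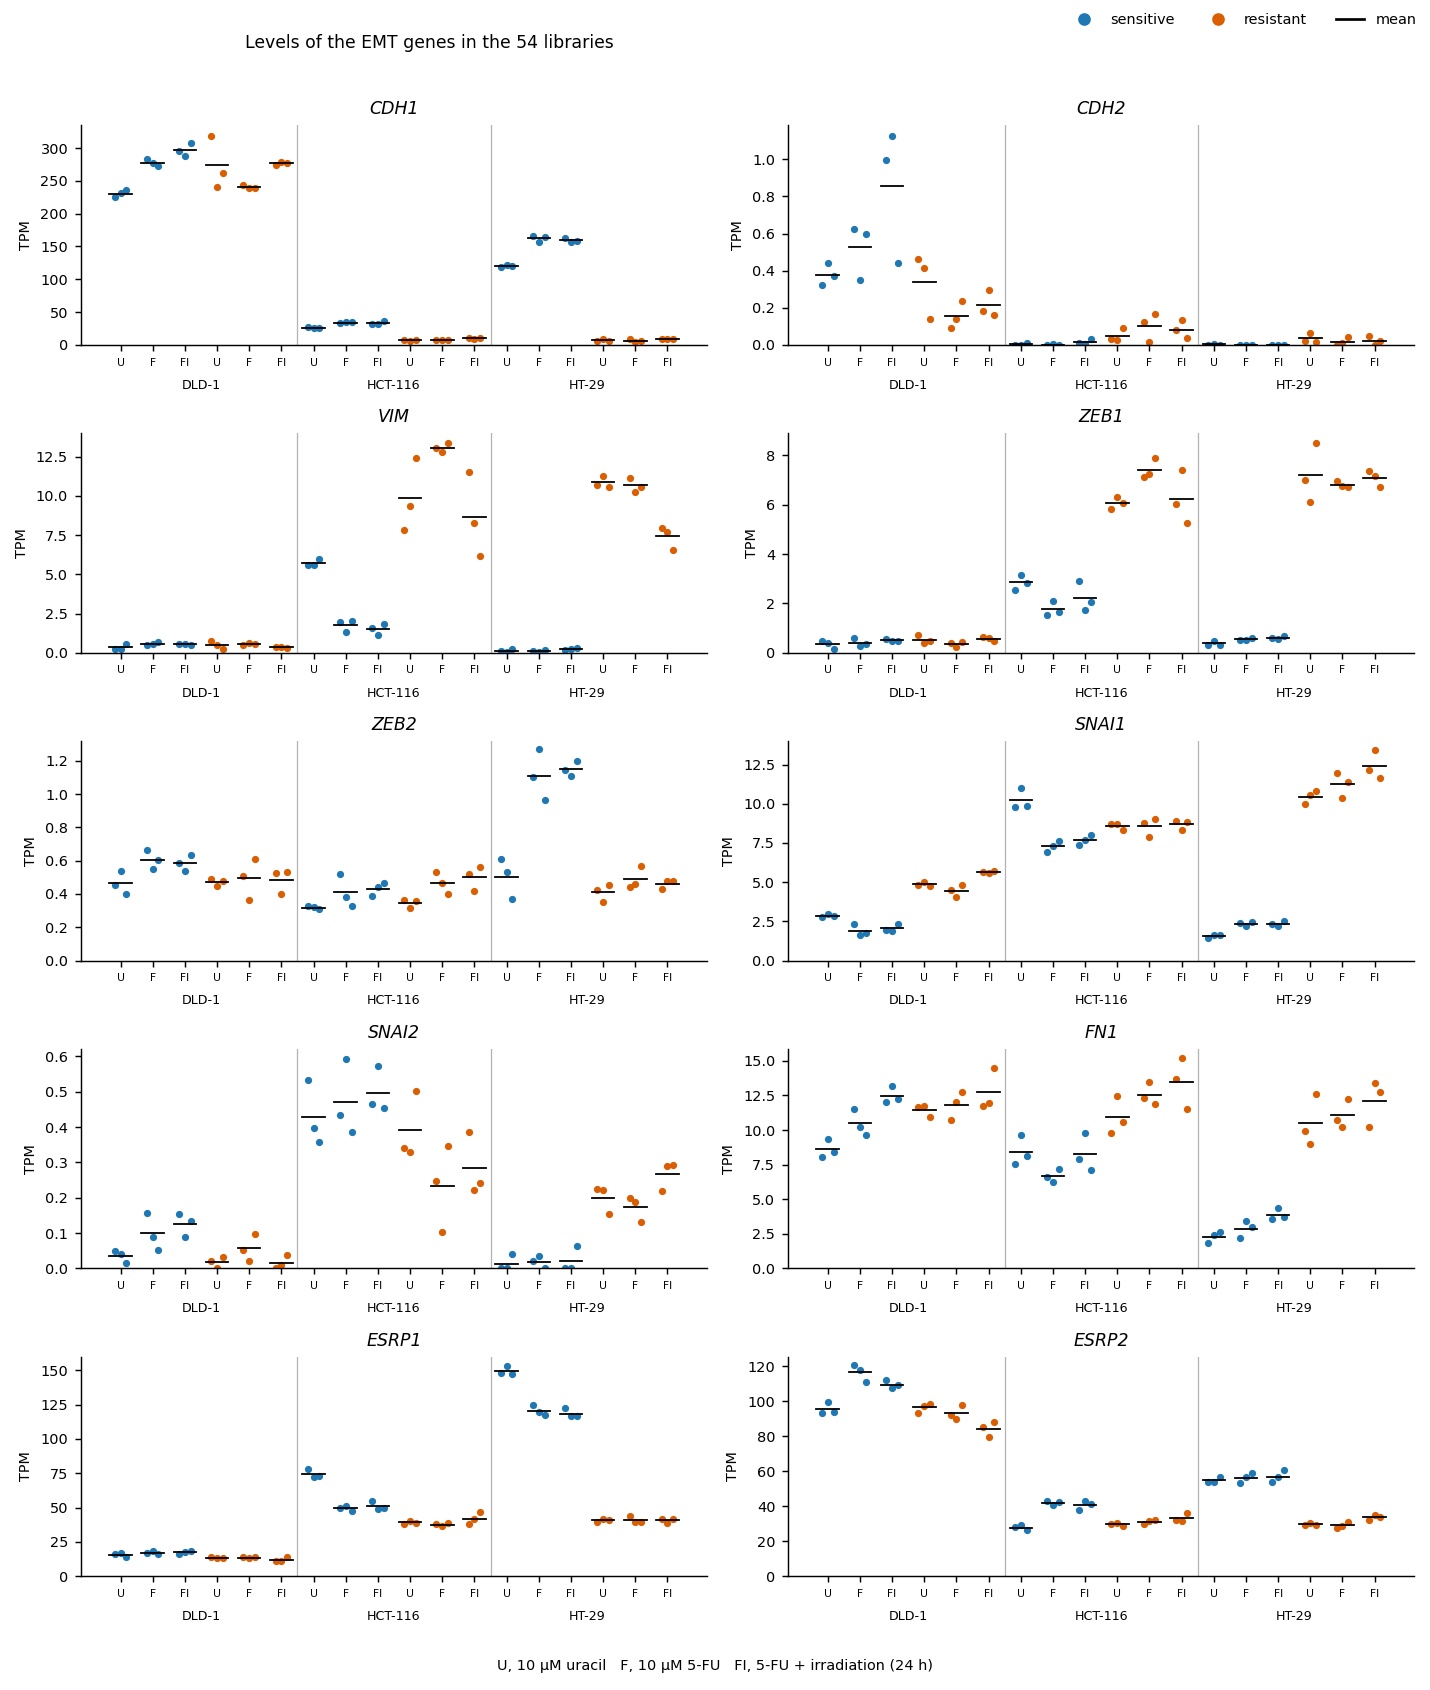
TPM of each of the 10 genes in every library (points, 3 replicates per condition from left to right) with the mean of each condition (bar), for sensitive (blue) and resistant (orange) cells in uracil (U), 5-FU (F) and 5-FU with irradiation (FI). CDH1 sits highest in DLD-1 and lowest in resistant HCT-116 and the libraries labelled resistant HT-29, where VIM and ZEB1 sit highest.

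CDH1 spanned the widest range of the well expressed genes, from a mean of 297.0 TPM (SD 10.5, n = 3) in irradiated sensitive DLD-1 cells to 6.45 TPM in the libraries labelled resistant HT-29 in 5-FU. In the ranking of its 18 condition means the order ran DLD-1, sensitive HT-29, sensitive HCT-116, and then resistant HCT-116 together with the libraries labelled resistant HT-29. Of the 17 pairs of neighbours in that ranking, 9 had replicates that did not overlap. The lowest 4 conditions, resistant HCT-116 and labelled resistant HT-29 in uracil and 5-FU, overlapped from each to the next. Ranked just above them was labelled resistant HT-29 in 5-FU with irradiation (8.28 to 9.38 TPM). Resistant HCT-116 in 5-FU, the highest of the 4, lay apart from it. Labelled resistant HT-29 reached 8.73 TPM in uracil and 8.59 TPM in 5-FU and overlapped it.

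VIM ran nearly opposite, from 13.1 TPM in resistant HCT-116 cells in 5-FU to 0.117 TPM in sensitive HT-29 cells in 5-FU, and 4 of its 17 neighbour pairs were apart. ZEB1 ranged from 7.42 to 0.348 TPM with 2 pairs apart, and SNAI1 from 12.4 to 1.57 TPM with 6. FN1 ranged from 13.5 to 2.29 TPM with 3 pairs apart, and ZEB2 from 1.15 to 0.318 TPM with 1. ESRP1 was highest in sensitive HT-29 in uracil (149.3 TPM) and lowest in irradiated resistant DLD-1 (12.02 TPM), with 6 pairs apart. ESRP2 was highest in sensitive DLD-1 in 5-FU (116.7 TPM) and lowest in sensitive HCT-116 in uracil (27.8 TPM), with 5. CDH2 and SNAI2 had 0 pairs apart.

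Resistant and sensitive cells of the same line were compared first in uracil and then in 5-FU, to ask how the EMT genes differed once resistance had been acquired. Fold changes came from the quasi-likelihood test of edgeR on estimated counts. A gene was called where its adjusted p (Benjamini-Hochberg, over all genes of the fit) was 0.01 or less and its log2 fold change was 1 or more in size, which is 2-fold. Since these were bulk cultures, fewer cells of a type and less RNA per cell cannot be told apart.

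In HCT-116 the resistant cells held less CDH1 and ESRP1 and more ZEB1 in uracil, and less CDH1 and more VIM and ZEB1 in 5-FU. In uracil 3 of the 9 genes tested were called (CDH2 was too low to test), where 11% of all 22975 genes were. In 5-FU 4 of 9 were called, where 13.3% of all genes were. Over all genes the median log2 fold change lay between -0.06 and 0.04 in every comparison of the study.

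CDH1 in sensitive HCT-116 in uracil measured 26.9, 26.2 and 26.2 TPM, and in resistant HCT-116 it measured 7.64, 6.39 and 7.03 TPM. The groups were far apart, with every resistant replicate below every sensitive one. CDH1 fell 3.85-fold (log2 fold change -1.95, SE 0.06, edgeR adjusted p = 7.72e-17). In 5-FU the sensitive replicates measured 33.1, 34.7 and 34.1 TPM and the resistant ones 6.68, 7.83 and 7.68 TPM. The difference in 5-FU was over 4-fold (log2 fold change -2.03, SE 0.06, adjusted p = 6.1e-18).

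VIM encodes the intermediate filament of mesenchymal cells. In uracil it measured 5.61, 5.62 and 5.97 TPM in sensitive HCT-116 and 7.86, 9.38 and 12.5 TPM in resistant HCT-116. The groups did not overlap, but the log2 fold change of 0.64 (SE 0.15, adjusted p = 0.000994) was under the 2-fold threshold. In 5-FU the sensitive replicates stood at 1.94, 1.30 and 2.04 TPM and the resistant ones at 13.03, 12.8 and 13.3 TPM. There VIM was 6.99-fold higher in resistant cells (log2 fold change 2.80, SE 0.17, adjusted p = 1.83e-12), with the sensitive value in 5-FU itself below that in uracil.

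ZEB1, the repressor of CDH1 and other epithelial genes, measured 2.54, 3.17 and 2.85 TPM in sensitive and 5.82, 6.31 and 6.08 TPM in resistant HCT-116 in uracil. All resistant replicates were above all sensitive ones, and the log2 fold change of 1.01 (SE 0.11, adjusted p = 1.08e-07) was just past the threshold. Without replicate 3 of the resistant cells in uracil it was 0.89 and no longer called. In 5-FU ZEB1 stood at 1.54, 2.09 and 1.64 TPM in sensitive and 7.13, 7.26 and 7.88 TPM in resistant cells, and the log2 fold change was 1.85 (SE 0.11, adjusted p = 4.31e-12). Protein-coding transcripts made up 91.6% of ZEB1 TPM in sensitive and 90.5% in resistant HCT-116 cells in uracil.

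ESRP1 was at 78.0, 72.3 and 73.3 TPM in sensitive and 38.0, 40.5 and 39.1 TPM in resistant HCT-116 in uracil. The log2 fold change was -1.04 (SE 0.06, adjusted p = 1.49e-12), close to the threshold. It was -0.98 without replicate 1 of the sensitive cells, -0.97 with scaling by library size alone and -0.96 when counts were recomputed from TPM with 1 length per gene, and in those settings ESRP1 was not called. In 5-FU the ESRP1 levels were 49.7, 51.01 and 47.9 TPM in sensitive and 37.7, 36.4 and 38.5 TPM in resistant cells, a log2 fold change of -0.49. The related ESRP2 stood at 28.0, 29.4 and 26.2 TPM in sensitive and 30.1, 30.2 and 28.9 TPM in resistant cells in uracil (log2 fold change -0.09, adjusted p = 0.154). In 5-FU ESRP2 averaged 42.0 TPM in sensitive and 31.1 TPM in resistant cells without overlap (log2 fold change -0.40, adjusted p = 6.85e-07), under 2-fold.

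SNAI1, which encodes the SNAIL repressor, had log2 fold changes of -0.30 in uracil and 0.17 in 5-FU between resistant and sensitive HCT-116. Neither reached 2-fold. SNAI2 was near the lower limit of detection, with estimated counts of 25, 52 and 28 in sensitive and 15, 6 and 18 in resistant cells in 5-FU. It was called lower there (log2 fold change -1.11, SE 0.33, adjusted p = 0.00655), yet DESeq2 gave -1.09 with an adjusted p of 0.0101, with 1 length per gene its adjusted p was 0.0152, and leaving out any of 4 single libraries ended the call, with log2 fold changes from -1.19 to -0.72. Those libraries were replicates 2 and 3 of the sensitive cells and replicates 1 and 2 of the resistant cells, all in 5-FU. ZEB2 stayed between 0.307 and 0.563 TPM in all HCT-116 libraries and was not called in any HCT-116 comparison. CDH2 had at most 4 counts in sensitive and between 2 and 10 counts in resistant HCT-116 libraries.

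FN1, the matrix glycoprotein fibronectin, went in different directions by scale in uracil. Its TPM was 7.52, 9.66 and 8.11 in sensitive and 9.78, 12.5 and 10.6 in resistant HCT-116 cells in uracil, higher in every resistant replicate. Its estimated counts gave a log2 fold change of -0.57 (SE 0.10, adjusted p = 5.47e-05) in the lower direction. With 1 length per gene the log2 fold change was 0.34 (adjusted p = 0.0227). In 5-FU FN1 was higher in resistant cells on both scales, at 6.66 TPM in sensitive and 12.6 TPM in resistant cells (log2 fold change 0.84, adjusted p = 2.53e-07, and 0.86 with 1 length per gene), under 2-fold.

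Splitting FN1 by annotated transcript type, chosen after the data were seen, showed where the scales parted. Of its transcripts 13 are protein-coding and 13 are shorter retained-intron transcripts. Protein-coding FN1 stood at 4.44, 4.74 and 3.79 TPM in sensitive and 1.30, 1.88 and 2.82 TPM in resistant HCT-116 in uracil. Retained-intron FN1 averaged 4.11 TPM (SD 0.94, n = 3) in sensitive and 8.93 TPM (SD 1.48, n = 3) in resistant cells. The protein-coding share of FN1 TPM was thus 51.3% in sensitive and 18.3% in resistant cells. kallisto assigns reads shared by several transcripts by estimate, and no test was made on this split.

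**Figure D2:**
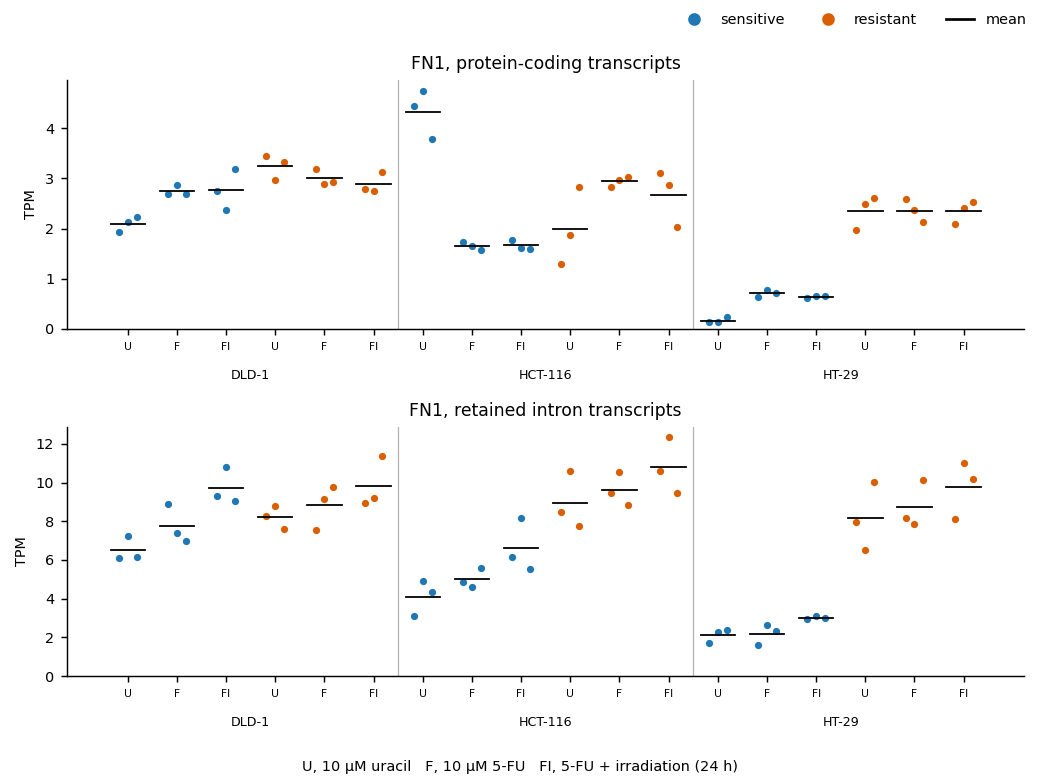
FN1 TPM per library (points) and condition mean (bar) for protein-coding transcripts (top) and retained-intron transcripts (bottom), with treatments U, F and FI as uracil, 5-FU and 5-FU with irradiation. In sensitive HCT-116 the protein-coding part stands at a mean of 4.32 TPM in uracil and 1.66 TPM in 5-FU, while in sensitive HT-29 it goes from 0.167 to 0.710 TPM.

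Of 9 genes tested between the states of DLD-1 (SNAI2 was too low), 1 was called in uracil, where 5.7% of 21814 genes were. For 5-FU the count was 2, where 9.11% of all genes were called. CDH1 stood at 225, 231 and 235 TPM in sensitive and 319, 240 and 261 TPM in resistant DLD-1 in uracil. The resistant values were all above the sensitive ones, with a log2 fold change of 0.18 (SE 0.04, adjusted p = 0.00256) far under 2-fold. In 5-FU the log2 fold change of CDH1 was -0.03 (adjusted p = 0.592).

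SNAI1 was the clearest DLD-1 difference. It measured 2.79, 2.95 and 2.87 TPM in sensitive and 4.79, 5.02 and 4.74 TPM in resistant cells in uracil (log2 fold change 0.74, SE 0.11, adjusted p = 1.11e-05). In 5-FU it measured 2.35, 1.66 and 1.73 TPM in sensitive and 4.52, 4.04 and 4.79 TPM in resistant cells, and was called higher (log2 fold change 1.33, SE 0.11, adjusted p = 3.05e-09). No resistant replicate overlapped a sensitive one in either treatment.

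CDH2 was called lower in resistant DLD-1 in 5-FU, with estimated counts of 75, 46 and 46 in sensitive and 10, 12 and 11 in resistant cells (log2 fold change -1.69, SE 0.25, adjusted p = 7.45e-06). Its level was at most 1.13 TPM in any library, so N-cadherin mRNA was scarce throughout. ZEB1 was called higher in uracil (log2 fold change 1.07, SE 0.23, adjusted p = 0.000777), but its TPM of 0.490, 0.389 and 0.165 in sensitive and 0.732, 0.391 and 0.478 in resistant cells overlapped. With 1 length per gene the ZEB1 log2 fold change was 0.60 (adjusted p = 0.213), and it was 0.89 without replicate 3 of the resistant cells. Neither was called. With a fit of the compared groups alone its adjusted p was 0.0121. Without replicate 1 of the sensitive cells its log2 fold change came to 1.00, at the threshold, and the call was lost.

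VIM lay between 0.239 and 0.745 TPM in all DLD-1 libraries, with log2 fold changes of 0.31 in uracil and 0.16 in 5-FU (adjusted p = 0.511 and 0.725). FN1 measured 8.04, 9.38 and 8.38 TPM in sensitive and 11.7, 11.7 and 10.9 TPM in resistant DLD-1 in uracil. Its log2 fold change of 0.51 (adjusted p = 1.99e-06) was under 2-fold. By counts the splicing regulators were close to level in uracil, with log2 fold changes of -0.09 and 0.04 for ESRP1 and ESRP2 (adjusted p = 0.133 and 0.454). ESRP1 TPM there averaged 15.6 in sensitive and 13.6 in resistant cells without overlap. Both genes were lower in resistant DLD-1 in 5-FU without overlap, at 13.6 against 17.2 TPM for ESRP1 and 93.2 against 116.7 TPM for ESRP2. With 1 length per gene the log2 fold changes in 5-FU were -0.21 and -0.19 (edgeR adjusted p = 0.042 and 0.00146), under 2-fold.

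The difference between lines in their resistance contrast was tested directly in uracil, as an addition made after the data were seen. The contrast of resistant against sensitive cells in HCT-116 minus that in DLD-1 passed the adjusted p for 5 of the 10 genes, where 32.3% of 26043 genes did. For CDH1 the difference was -2.11 on the log2 scale (SE 0.08, adjusted p = 1.8e-27) and for ESRP1 it was -0.93 (SE 0.08, adjusted p = 1.11e-14). SNAI1 differed by -1.02 (SE 0.11, adjusted p = 1.53e-10). FN1 differed by -1.06, but by -0.05 with 1 length per gene. CDH2 differed by 4.00 with the sensitive HCT-116 libraries at the detection floor of 3 counts. It is among the 5 although it was too low to test within HCT-116, and it entered this fit through DLD-1. The CDH2 call was lost with 1 length per gene (adjusted p = 0.0414) and without replicate 1 or 2 of sensitive or replicate 3 of resistant HCT-116. For VIM (0.32, SE 0.32) and ZEB1 (0.01) the test found no difference between the lines.

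**Figure D3:**
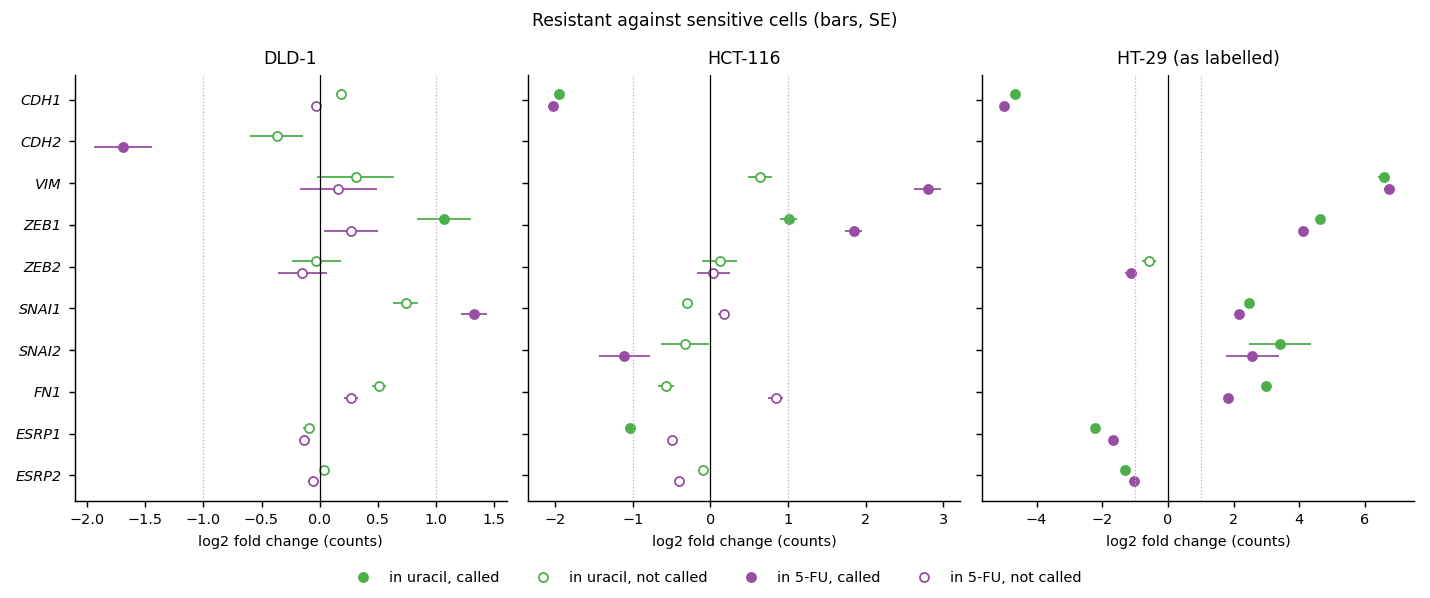
Log2 fold change of resistant against sensitive cells for each EMT gene (points, bars are SE) in uracil (green) and 5-FU (purple), filled where called at the adjusted p and the 2-fold threshold (dotted lines). HCT-116 shows CDH1 at -1.95 and -2.03 with VIM and ZEB1 to the right, DLD-1 shows only small shifts for CDH1, and the HT-29 panel holds the libraries that carry HCT-116 markers. Horizontal scales differ between panels, and SNAI2 in DLD-1 and CDH2 in HCT-116 and HT-29 were not tested.

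In the libraries labelled resistant HT-29 almost every EMT gene differed from sensitive HT-29. In uracil 8 of 9 were called, where 39.4% of 23756 genes were, and in 5-FU 9 of 9, where 42.7% were. CDH1 measured 118, 121 and 120 TPM in sensitive HT-29 and 5.67, 8.73 and 6.63 TPM in the labelled resistant libraries (log2 fold change -4.67, SE 0.06, adjusted p = 2.33e-28). VIM had a log2 fold change of 6.58 and ZEB1 of 4.62, SNAI1 of 2.46, FN1 of 2.99, ESRP1 of -2.22 and ESRP2 of -1.30, each called. By TPM the FN1 difference was smaller, at means of 2.29 in sensitive HT-29 and 10.5 in the labelled libraries. SNAI2 was at least 2.68-fold higher, since sensitive HT-29 had at most 2 counts per library in uracil. The SNAI2 call in uracil was lost without replicate 1 or 2 of sensitive HT-29 or replicate 2 of the labelled libraries, with adjusted p from 0.0127 to 0.0194. In 5-FU it was lost without replicate 1 or 3 of sensitive HT-29 or replicate 2 or 3 of the labelled libraries (adjusted p from 0.0132 to 0.0323). With library size alone, ZEB2 (-0.99) and ESRP2 (-0.91) were not called in 5-FU.

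The same libraries were therefore set against HCT-116 in uracil, in a fit of all 54 libraries. Against sensitive HCT-116, 4 of 10 EMT genes were called, where 6.87% of 26043 genes were. CDH1 was lower (log2 fold change -2.22, SE 0.06, adjusted p = 7.31e-33) and ZEB1 higher (1.18, SE 0.11, adjusted p = 4.05e-13). ESRP1 (-1.05) and SNAI2 (-1.57) were lower. With library size alone ESRP1 was at -0.96, and with 1 length per gene SNAI2 was at -1.21 (adjusted p = 0.0514). The SNAI2 call was also lost without replicate 1 of sensitive HCT-116 and without replicate 1 or 3 of the labelled libraries. Against resistant HCT-116, 0 of 10 were called by edgeR or by DESeq2, where 3.36% of all genes were, and 4 had an unadjusted p under 0.05. CDH1 there had a log2 fold change of -0.29 (adjusted p = 0.00038), with overlapping TPM. VIM measured 10.7, 11.3 and 10.6 TPM in the libraries labelled resistant HT-29 and 7.86, 9.38 and 12.5 TPM in resistant HCT-116. ESRP1 measured 39.5, 41.7 and 40.7 TPM against 38.0, 40.5 and 39.1 TPM.

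The sensitive lines themselves differed widely before any drug. Between sensitive HCT-116 and sensitive DLD-1 in uracil 8 of 10 genes were called, where 30.7% of all genes were. HCT-116 had 9.78-fold less CDH1 (26.4 against 230.6 TPM) and more VIM (5.73 against 0.343 TPM, log2 fold change 4.06), ZEB1 (3.71) and SNAI1 (1.80). CDH2 was at least 8.63-fold lower in HCT-116. ESRP1 was higher in HCT-116 (2.61) and ESRP2 lower (-1.69), so the related splicing regulators differed in opposite directions.

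Sensitive HT-29 against sensitive DLD-1 gave 4 of 10 called, where 30.9% of all genes were. These were ESRP1 (log2 fold change 3.77), FN1 (-2.68), VIM (-1.73) and CDH2, at least 7.76-fold lower. Sensitive HT-29 against sensitive HCT-116 gave 8 of 10, where 37.5% were, with CDH1 (2.43), ESRP1 (1.16) and ESRP2 (1.08) higher in HT-29. VIM (-5.79), FN1 (-3.57), ZEB1 (-3.45) and SNAI1 (-2.56) were lower there, and SNAI2 was at least 7.99-fold lower. By TPM both FN1 differences of sensitive HT-29 were smaller than by counts, at means of 2.29 in HT-29, 8.43 in HCT-116 and 8.60 in DLD-1. Of the 3 sensitive lines, HCT-116 had the lowest CDH1 and the highest VIM, ZEB1 and SNAI1. Scaling by library size alone put ESRP1 at 1.00 and ESRP2 at 0.91 in the last comparison, where neither was then called, and with 1 length per gene VIM in HT-29 against DLD-1 was -1.06 (adjusted p = 0.0256).

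The 5-FU treatment was compared with uracil within each state to ask how the genes answered the drug over 24 h. In sensitive HCT-116, VIM and FN1 were lower in 5-FU, and 2 of 9 genes were called, where 8.14% of all genes were. VIM went from 5.61, 5.62 and 5.97 TPM to 1.94, 1.30 and 2.04 TPM, a 3.25-fold fall (log2 fold change -1.70, SE 0.17, adjusted p = 2.6e-08). Every treated replicate lay far below every control replicate. FN1 was called lower by counts (log2 fold change -1.04, SE 0.10, adjusted p = 1.29e-08), with 6.60, 6.24 and 7.15 TPM after 7.52, 9.66 and 8.11 TPM. The FN1 log2 fold change was -0.35 (adjusted p = 0.0193) with 1 length per gene and -0.95 with scaling by library size alone, and was not called in either. Protein-coding FN1 went from a mean of 4.32 TPM to 1.66 TPM (SD 0.08, n = 3), and retained-intron FN1 from 4.11 to 5.01 TPM.

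Other genes in sensitive HCT-116 passed the adjusted p in 5-FU without reaching 2-fold. The log2 fold changes were -0.64 for ZEB1 (adjusted p = 0.000124), -0.50 for SNAI1 (2.61e-06), -0.63 for ESRP1 (4.12e-09) and 0.30 for ESRP2 (4.23e-05). ZEB1, SNAI1, VIM and ESRP1 were thus on the lower side and ESRP2 on the higher. The repressor genes ZEB2 and SNAI2 had log2 fold changes of 0.40 and 0.02 (adjusted p = 0.134 and 0.956). CDH1 had a log2 fold change of 0.13 (adjusted p = 0.0485).

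In sensitive DLD-1, 0 of 9 genes were called after 5-FU by edgeR or by DESeq2, where 4.02% of all genes were, and 6 had an unadjusted p under 0.05. Those that passed the adjusted p were SNAI1 (log2 fold change -0.69, adjusted p = 3.16e-05), CDH2 (0.70, adjusted p = 0.00912) and FN1 (0.24, adjusted p = 0.00354). SNAI1 went from 2.79, 2.95 and 2.87 TPM to 2.35, 1.66 and 1.73 TPM.

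In sensitive HT-29, 1 of 9 was called, where 12.2% of all genes were. FN1 had a log2 fold change of 1.11 (SE 0.12, adjusted p = 7.44e-09) by counts, but its TPM of 1.82, 2.42 and 2.62 in uracil and 2.22, 3.41 and 3.02 in 5-FU overlapped, and with 1 length per gene it was 0.09 (adjusted p = 0.691). Protein-coding FN1 was at 0.167 TPM (SD 0.05, n = 3) in uracil and 0.710 TPM (SD 0.07, n = 3) in 5-FU. ZEB2 went from 0.608, 0.532 and 0.367 TPM to 1.10, 1.27 and 0.963 TPM (log2 fold change 0.80, SE 0.19, adjusted p = 0.000612). Without replicate 1 in uracil it was 1.03 and called. Retained-intron transcripts made up 67.4% of ZEB2 TPM in sensitive HT-29 in uracil and 68.7% in 5-FU. ESRP1 had a log2 fold change of -0.58 (adjusted p = 2.11e-11) in the lower direction, from 147.7, 152.9 and 147.2 TPM to 125, 119 and 117 TPM. CDH1 went up, from a mean of 119.8 to 162.5 TPM, and SNAI1 from 1.57 to 2.36 TPM. Neither was called, and for both the replicates did not overlap. A higher CDH1 TPM in 5-FU was not particular to HT-29. Its mean went from 26.4 to 34.0 TPM in sensitive HCT-116 and from 230.6 to 277.8 TPM in sensitive DLD-1, also without overlap.

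**Figure D4:**
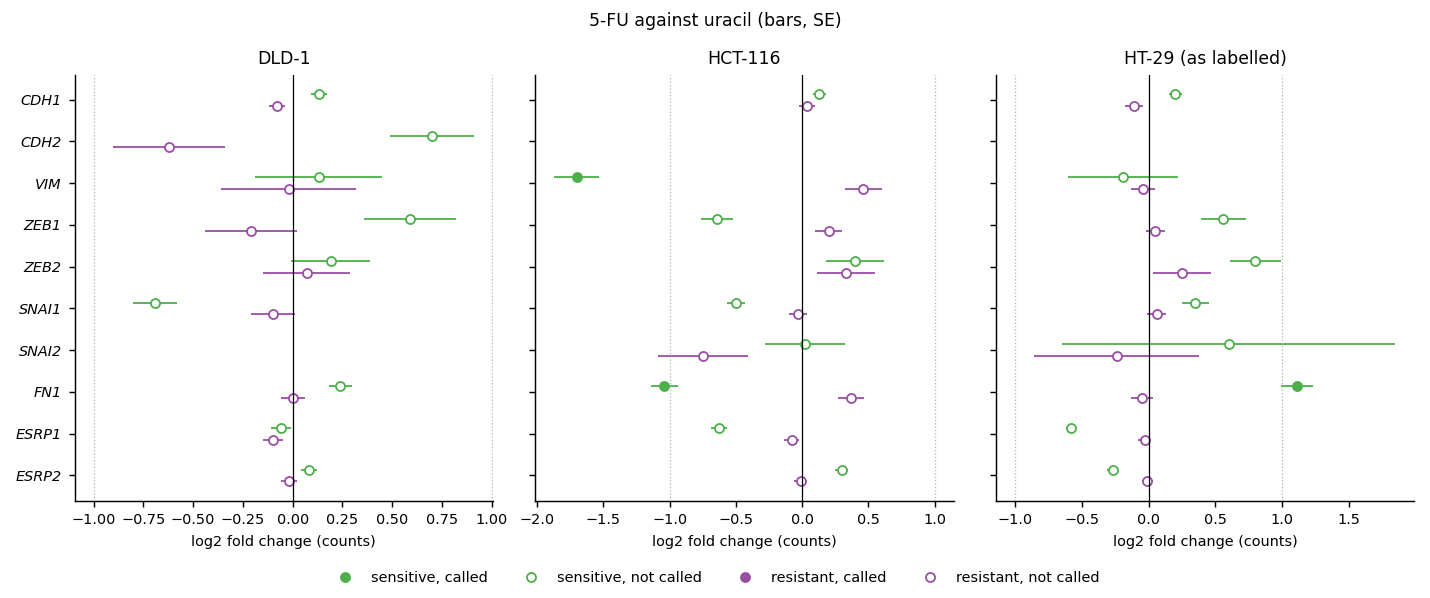
Log2 fold change of 5-FU against uracil for each EMT gene (points, bars are SE) in sensitive (green) and resistant (purple) cells, filled where called, with dotted lines at 2-fold and different horizontal scales by panel. VIM and FN1 in sensitive HCT-116 and FN1 in sensitive HT-29 are called, and all resistant points are open.

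In resistant cells no EMT gene was called after 10 µM 5-FU. These cells had been kept in a higher dose of the drug, so the contrast was not a first exposure as in sensitive cells. In resistant DLD-1, 0 of 9 genes were called by edgeR and 0 of the 5 with an adjusted p by DESeq2, and 2 had an unadjusted p under 0.05, where 0.0138% of all genes were called. In resistant HCT-116, 0 of 9 were called by either tool and 3 had an unadjusted p under 0.05, where edgeR called 0% of all genes (1878 at an unadjusted p under 0.05, 1 called by DESeq2). In the libraries labelled resistant HT-29, 0 of 9 were called by edgeR and 0 of 8 by DESeq2, and 0 had an unadjusted p under 0.05, where 0.00421% of all genes were called. VIM in resistant HCT-116 stood at 7.86, 9.38 and 12.5 TPM in uracil and 13.03, 12.8 and 13.3 TPM in 5-FU (log2 fold change 0.46, adjusted p = 0.415).

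Whether the answer to 5-FU differed between resistant and sensitive cells was tested as an interaction, counted at the adjusted p alone. In HCT-116 it passed for 6 of 9 genes, where 29.7% of all genes passed. The largest were VIM, with a difference in log2 response of 2.16 (SE 0.22, adjusted p = 8.08e-08), and FN1, with 1.40, which was 0.52 (adjusted p = 0.0207) with 1 length per gene. In DLD-1 it passed for 2 of 9, where 22.8% of all genes did, and in HT-29 as labelled for 4 of 9, where 35.4% did. The DLD-1 count was 0 with a fit of the compared groups alone, and between 0 and 2 when single libraries were left out, most of which ended the call of CDH2 or SNAI1. With 1 length per gene the HT-29 count was 1. In HT-29 the difference also holds the difference between the cells under each label.

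Irradiation added to 5-FU was set against 5-FU alone. In sensitive cells 0 of 9 EMT genes were called in each line by edgeR. DESeq2 called 0 of the genes to which it gave an adjusted p, 4 for DLD-1, 7 for HCT-116 and 9 for HT-29. Of the 9, the number at an unadjusted p under 0.05 was 1 for DLD-1 and 0 for both HCT-116 and HT-29. Among all genes edgeR called 0% in sensitive DLD-1 (2447 at an unadjusted p under 0.05, 0 called by DESeq2), 0% in sensitive HCT-116 (1943 and 0) and 0.00842% in sensitive HT-29.

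In resistant cells 0 of 9 were called in each line by edgeR and 0 by DESeq2, which gave an adjusted p to 5 genes of DLD-1, 7 of HCT-116 and 8 of HT-29. There were 5 at an unadjusted p under 0.05 for DLD-1, 4 for HCT-116 and 3 for HT-29 as labelled. The shares of all genes called were 0.142%, 0.0261% and 0.434% in that order. CDH1 passed the adjusted p under 2-fold in resistant HCT-116, from 6.68, 7.83 and 7.68 TPM to 9.91, 9.49 and 9.88 TPM (log2 fold change 0.47, SE 0.06, adjusted p = 6.24e-05). CDH1 did so too among the labelled HT-29 libraries, from 8.59, 4.84 and 5.90 TPM to 9.20, 9.38 and 8.28 TPM (log2 fold change 0.54, adjusted p = 4.49e-07). VIM had log2 fold changes of -0.60 (adjusted p = 0.0124) and -0.48 (adjusted p = 0.000486) in the same libraries. In resistant DLD-1 ESRP1 had a log2 fold change of -0.21 (adjusted p = 0.00885).

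Other EMT genes were read from fixed lists of junction and polarity genes, epithelial regulators, further EMT transcription factors, mesenchymal and matrix genes, and TGF-beta pathway genes. In resistant against sensitive HCT-116 in uracil, 5 of 20 junction genes were called, all lower, with a median log2 fold change of -0.62 against 0.00 for all genes, of which 11% were called (957 higher and 1562 lower). Among them were ST14, encoding the protease matriptase (28.5 against 69.1 TPM, log2 fold change -1.33), and JUP, encoding plakoglobin (60.0 against 123.2 TPM, log2 fold change -1.12). RAB25 and the tight junction gene CLDN3 had log2 fold changes of -1.17 and -1.25. Of 8 epithelial regulators 2 were lower. GRHL2, a transcription factor that sustains epithelial genes, went from 6.46 to 1.09 TPM (log2 fold change -2.57, SE 0.08, adjusted p = 1.02e-16), and GRHL3 had a log2 fold change of -2.61.

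Mesenchymal and matrix genes were mixed in resistant HCT-116, with 3 higher and 5 lower of 20 tested (median -0.12). S100A4, a calcium-binding protein of motile cells, rose from 300.4 to 1077 TPM (log2 fold change 1.80, adjusted p = 1.02e-14). The receptor tyrosine kinase gene AXL rose from 24.1 to 64.0 TPM (log2 fold change 1.36). SPARC, a secreted matrix protein, fell from 2240 to 771.3 TPM (log2 fold change -1.61), and THBS1 had a log2 fold change of -1.36. Of the further transcription factors 1 of 6 was called, SNAI3 (log2 fold change -1.12). Of 12 TGF-beta pathway genes 0 were called by edgeR and 0 by DESeq2, with 10 at an unadjusted p under 0.05. Of the fibroblast markers 2 were tested and both were called lower (median -1.16), with a summed level of 20.54 to 25.01 TPM in sensitive and 10.31 to 13.66 TPM in resistant libraries. Of the leukocyte markers 2 of 4 tested were called higher (median 1.06), with a summed level of 8.44 to 9.46 TPM in sensitive and 14.6 to 17.43 TPM in resistant libraries, and CD3E was at 0 TPM in both. The part of either cell type in these values was not tested.

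In 5-FU the same contrast in HCT-116 gave 3 of 20 junction genes lower (median -0.72), 2 of 8 epithelial regulators lower and 1 of 6 further transcription factors lower, where 13.3% of all genes were called (1212 higher and 1845 lower). The junction gene count was near that share. Matrix genes were called higher in 2 and lower in 8 of 20 cases (median -0.39), and 3 of 12 TGF-beta pathway genes were lower. CDH3, encoding P-cadherin, had a log2 fold change of -1.34 (38.5 against 86.2 TPM). SMAD3, the intracellular carrier of TGF-beta signals, had one of -1.18.

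In DLD-1 the lists gave other counts. In uracil 0 of 20 junction genes were called by edgeR and 0 by DESeq2, with 10 at an unadjusted p under 0.05, and the median log2 fold change was -0.01. Matrix genes were called in both directions, 3 higher and 3 lower of 20, where 5.7% of all genes were called. TNC, encoding tenascin-C, fell from 2.41 to 0.386 TPM (log2 fold change -4.05), and S100A4 had a log2 fold change of 2.44. The test of the difference between the 2 contrasts passed for 16 of 20 junction genes, all more negative in HCT-116 (median -0.53), where 32.3% of all genes passed (3649 more positive and 4762 more negative).

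The libraries labelled resistant HT-29, set against sensitive HCT-116, had 5 of 20 junction genes lower (median -0.68), 2 of 8 epithelial regulators lower, and matrix genes 2 higher and 1 lower of 23, where 6.87% of all genes were called. Set against sensitive HT-29, 14 junction genes were lower and 1 higher of 20, 7 epithelial regulators lower and 1 higher of 8, and 14 matrix genes higher and 4 lower of 22, where 39.4% of all genes were called.

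After 5-FU in sensitive cells, the called genes of the mesenchymal and matrix list, which does not hold FN1 or VIM, were all higher. These were 3 of 20 for DLD-1, where 4.02% of all genes were called (580 higher and 298 lower), and 3 of 20 for HCT-116, where 8.14% were (1100 higher and 771 lower). In HT-29 they were 7 of 22, where 12.2% of all genes were called (2105 higher and 785 lower). CCN1, a secreted matricellular protein, rose in DLD-1 from 24.5 to 130.6 TPM (log2 fold change 2.30) and in HT-29 from 1.86 to 12.4 TPM (log2 fold change 2.51). AXL rose in HT-29 from 2.45 to 24.8 TPM (log2 fold change 3.11) and EMP3 from 4.13 to 32.9 TPM (log2 fold change 2.69). In HT-29, 3 of 12 TGF-beta pathway genes were higher, with TGFB1 going from 15.7 to 56.6 TPM (log2 fold change 1.66). GRHL3 and KLF4, epithelial regulators, were higher in HT-29 with log2 fold changes of 1.54 and 1.30. Of the fibroblast markers 2 of 4 tested and of the leukocyte markers 3 of 4 tested were also called higher in sensitive HT-29 in 5-FU. The summed fibroblast markers went from between 1.23 and 1.99 TPM to between 3.75 and 5.15 TPM, and the leukocyte markers from between 3.84 and 6.81 TPM to between 20.18 and 24.74 TPM. Their part in these values was not tested.

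Isoforms of genes that ESRP proteins are known to splice were read from the transcript tables, as a description without a test. Shares are percentages of the TPM of the transcripts classed for a gene. CD44, a hyaluronan receptor, had 17 transcripts with a variable exon (chromosome 11, 35190066 to 35214851) and 6 of the standard form. In HCT-116 in uracil the variable-exon share was 82.9% ± 0.8 (SD, n = 3) in sensitive and 70.4% ± 1.0 (SD, n = 3) in resistant cells, and no replicates overlapped. The variable-exon level was 259.1 TPM in sensitive and 125.1 TPM in resistant cells, whereas the standard form was at 53.4 and 52.8 TPM.

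In the libraries labelled resistant HT-29 the CD44 share was 71.9% ± 0.3 (SD, n = 3), and in sensitive HT-29 it was 74.9% ± 0.5. In DLD-1 it was 65.8% ± 1.3 in sensitive and 60.2% ± 1.0 in resistant cells. The lowest CD44 shares were thus in DLD-1, the line with the lowest ESRP1 and the highest ESRP2. Sensitive HT-29 in uracil, however, had more ESRP1 than sensitive HCT-116 (149.3 against 74.5 TPM) and a lower CD44 share. A link between ESRP levels and these shares was not tested. Shares taken from estimated counts differ in level, with 71.4% in sensitive HCT-116 in uracil.

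CTNND1 encodes p120 catenin, whose full-length form is the mesenchymal one, while ESRP proteins favour shorter forms with a later start. The full-length share was 9.8% ± 0.5 in sensitive HCT-116 in uracil, 12.6% ± 1.5 in resistant HCT-116 in uracil and 17% ± 1.8 in sensitive HCT-116 in 5-FU. From estimated counts these shares were 5.3%, 7.3% and 7.0% in that order. On that scale the sensitive cells in 5-FU were not above the resistant cells and overlapped the sensitive cells in uracil. For ENAH, which carries an epithelial exon 11a of 63 bases (chromosome 1, 225504991 to 225505053), the condition means lay between 11.5% and 15.0%. In HCT-116 in uracil the share with this epithelial exon was higher in resistant cells, at 13.5% against 11.5% in sensitive cells, without overlap. ENAH thus went the other way from CD44 and CTNND1. From estimated counts these 2 ENAH shares were 39.6% and 35.8%.

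**Figure D5:**
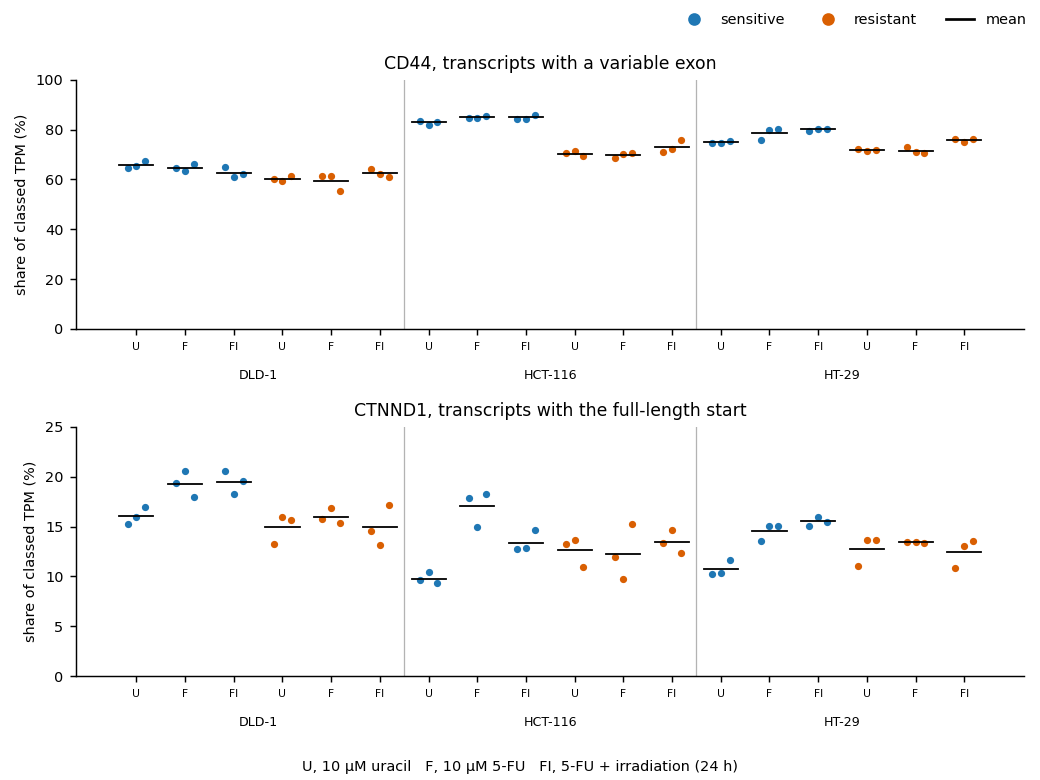
Share of classed TPM (percent) held by CD44 transcripts with a variable exon (top) and CTNND1 transcripts with the full-length start codon, the mesenchymal form (bottom), per library (points) and condition mean (bar), with treatments U, F and FI as uracil, 5-FU and 5-FU with irradiation. Resistant HCT-116 lies below sensitive HCT-116 in CD44, and vertical scales differ between panels.

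Genes whose levels followed the EMT genes most closely were named by Pearson's r across the 18 condition means of log2(TPM + 1), among 21996 genes. Conditions of a line share their cells, so r is a description only. For CDH1 they were MACC1, TCN2 and CASP10 (each r = 0.99). VIM was followed by TCAM1P (0.986), PCGF6 and C1QL1 (each 0.981), and ZEB1 by TCAM1P (0.986), AC013457.1 (0.986) and GREB1L (0.983). SNAI1 was followed by SEMA6B (0.991), EGFL7 (0.988) and TRIM9 (0.983), and ZEB2 by AC015818.8 (0.973), APOL3 and LINC01133 (each 0.971). FN1 had CDKL3 (0.972), CCDC88A (0.968) and RBFOX2 (0.967). ESRP1 had GALNT14 (0.992), ZMIZ1 (0.976) and CASC9 (0.975), and ESRP2 had LINC00899, STUB1 and ZNF426 (each 0.98). Adding 0.1 in place of 1 before the logarithm changed most of the named genes for 3 EMT genes and kept most for 5. A search of all genes with a count kept most of them for all 8.

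Among the EMT genes themselves, r was -0.98 between CDH1 and ZEB1, -0.95 between CDH1 and VIM and 0.98 between VIM and ZEB1. CDH1 and ESRP2 had r = 0.94, and ESRP1 and ESRP2 had r = -0.56. FN1 and ESRP1 had r = -0.78.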

How the data were processed

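RNA of 54 libraries was sequenced after poly(A) selection with a directional kit. Per the labels and methods, the authors trimmed reads with Trimmomatic 0.36, checked them with FastQC 0.11.8 and quantified them with kallisto 0.44.0 on Ensembl 98 transcripts (GRCh38.p13). They deposited estimated counts, which are not normalized, and TPM values, normalized by kallisto for transcript length and depth, per transcript and summed per gene name. kallisto divides reads shared by transcripts or genes by estimate.

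Samples were grouped by the labels of line, state and treatment. The estimated counts were rounded and tested with edgeR 4.0.16 (quasi-likelihood, TMM, filterByExpr; R 4.3.3), with 1 fit per line (18 libraries, 12 residual degrees of freedom) and 1 fit of all 54 libraries (36 residual degrees of freedom) for comparisons between lines. The thresholds were those of the study, a Benjamini-Hochberg adjusted p of 0.01 and a log2 fold change of 1. Interactions used the adjusted p alone. SE was the log2 fold change divided by the root of the F statistic. A group with at most 3 counts in every library was taken as at the floor, and folds against it are lower bounds per library that cover counting error only. The fit was tested on simulated data with 200 well expressed genes changed by a log2 fold change of 2 either way, and recovered 200 in each line. False calls were 2 among 21814 genes for DLD-1, 1 among 22975 for HCT-116 and 2 among 23756 for HT-29. Changes near 2-fold and changes of genes with few counts were not simulated, so their recovery is not known.

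The 54 replicate pairs differed by more than sampling noise (chi-square per degree of freedom 2.24 to 24.54), so no libraries were merged. Replicate numbers did not pair the samples: over 45 pairs of same-numbered libraries per line, deviations from the group means correlated on average at -0.006 for DLD-1, 0.012 for HCT-116 and 0.007 for HT-29.

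Isoform classes and transcript types came from GENCODE 44, promoters from a RefSeq table of GRCh38.p14. Levels use TPM and fold changes use counts, and the 2 can differ where transcript use shifts. All 10 genes are named, and from each other list up to 4 called genes per comparison with the largest change and at least 1 TPM in either group, except that 1 such gene and 1 planned isoform share are not reported here. The genes and lists were chosen with earlier results of these data known. Alternatives were DESeq2 1.42.0, scaling by library size, keeping low counts, the replicate block, only the compared groups, each replicate left out, the deepest library thinned to 50361620 counts and other fold thresholds. Counts rebuilt from TPM with 1 length per gene, the split by transcript type and the difference in resistance contrast between lines were added after seeing the data. Other steps used Python 3.11.15, pandas 2.3.3, numpy 2.4.6, scipy 1.17.1 and matplotlib 3.10.9.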

Additional observations from a re-analysis of the deposited data

Results flagged for a closer look

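The answer to 5-FU (5-FU against uracil) was tested for a difference between resistant and sensitive cells, by the interaction term of edgeR with Benjamini-Hochberg adjustment over all genes. Values are differences in log2 fold change, resistant minus sensitive. The resistant cells had already been kept in a higher dose of the drug.

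In HCT-116, VIM differed by 2.16 (SE 0.22, adjusted p = 8.08e-08), with a log2 fold change of 0.46 in resistant and -1.70 in sensitive cells. FN1 differed by 1.40 (SE 0.14, adjusted p = 5.65e-08, but 0.52 with an adjusted p of 0.0207 with 1 length per gene) and ZEB1 by 0.84 (SE 0.16, adjusted p = 0.000221). ESRP1 differed by 0.54 (SE 0.08, adjusted p = 1.19e-05), SNAI1 by 0.47 (SE 0.10, adjusted p = 0.000601) and ESRP2 by -0.31 (SE 0.07, adjusted p = 0.00181). ESRP2 was no longer past the threshold without replicate 3 of sensitive or replicate 1 of resistant cells in uracil, at -0.27 in both cases.

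In DLD-1, CDH2 differed by -1.32 (SE 0.35, adjusted p = 0.00565), a gene of at most 1.13 TPM, and SNAI1 by 0.59 (SE 0.15, adjusted p = 0.00515). CDH2 was not past the threshold with DESeq2 (adjusted p = 0.0136), without the filter on low counts (0.035), with 1 length per gene (0.102), with only the compared groups (0.011) or with any of 8 single libraries left out (0.0123 to 0.0218). SNAI1 was not past it with library size alone (0.024), with 1 length per gene (0.0163), with only the compared groups (0.0107) or with any of 7 single libraries left out (0.0104 to 0.0213). In HT-29 as labelled, FN1 differed by -1.17 (SE 0.14, adjusted p = 2.01e-07) and ESRP1 by 0.55 (SE 0.07, adjusted p = 1.12e-07). With 1 length per gene the FN1 difference was -0.05 (adjusted p = 0.915). CDH1 differed by -0.32 (SE 0.08, adjusted p = 0.00211), which was lost without replicate 2 (-0.28) or replicate 3 (-0.26) of the labelled resistant libraries in uracil and with 1 length per gene (adjusted p = 0.205). ESRP2 differed by 0.26 (SE 0.05, adjusted p = 0.000256), and by 0.13 (adjusted p = 0.0385) with library size alone and 0.15 (adjusted p = 0.119) with 1 length per gene, neither past the threshold. The HT-29 values compare cells that carry markers of different lines.

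The contrast of resistant against sensitive cells in uracil also differed between HCT-116 and DLD-1, as a test added after the data were seen. The differences, HCT-116 minus DLD-1 on the log2 scale, were -2.11 for CDH1 (SE 0.08, adjusted p = 1.8e-27), -0.93 for ESRP1 (SE 0.08, adjusted p = 1.11e-14) and -1.02 for SNAI1 (SE 0.11, adjusted p = 1.53e-10). For FN1 it was -1.06 (SE 0.12, adjusted p = 5.56e-10), but -0.05 with 1 length per gene, and for CDH2 4.00 (SE 1.06, adjusted p = 0.0018), with sensitive HCT-116 at the floor. CDH2 was too low to test within HCT-116 and entered this fit through DLD-1. Its call was lost with 1 length per gene (adjusted p = 0.0414) and without any of 3 single libraries.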

How the results depend on the processing

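The counts of EMT genes called were within 1.5 times their reported value in all 27 comparisons under DESeq2, without the filter on low counts and with the replicate block, and in the 7 of DLD-1 with the deepest library thinned. The replicate numbers did not pair the samples, and the fit with the replicate block gave 1 called gene in resistant against sensitive DLD-1 in uracil, 3 in HCT-116 and 8 in HT-29 as labelled. No called gene changed direction under any of these alternatives. The DLD-1 interaction kept its count under DESeq2 and without the filter on low counts, but CDH2 no longer passed and CDH1 did. CDH1 differed by -0.22 in both settings (adjusted p = 0.0026 with DESeq2 and 0.00247 with edgeR without the filter).

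With counts rebuilt from 1 length per gene, 0 genes were called in resistant against sensitive DLD-1 in uracil, 1 in sensitive HCT-116 and 0 in sensitive HT-29 in 5-FU, 1 in the DLD-1 and 1 in the HT-29 interaction, and 3 in the difference in resistance contrast between lines. FN1 in resistant against sensitive HCT-116 in uracil, not called in either, went from -0.57 to 0.34 on the log2 scale. With library size alone 4 passed in the DLD-1 interaction and 1 was called in sensitive HCT-116 in 5-FU. With only the compared groups 0 were called in resistant against sensitive DLD-1 in uracil and 0 in the DLD-1 interaction.

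At a log2 threshold of 2, resistant against sensitive gave 0 in DLD-1 in uracil and 0 in 5-FU, 0 in HCT-116 in uracil and 2 in 5-FU, and 5 in HT-29 in 5-FU; 5-FU against uracil gave 0 in sensitive HCT-116 and 0 in sensitive HT-29, and labelled resistant HT-29 against sensitive HCT-116 gave 1. At the adjusted p alone, resistant against sensitive gave 4 in DLD-1 in uracil and 6 and 7 in HCT-116 in uracil and 5-FU. 5-FU against uracil in sensitive cells gave 3 for DLD-1, 6 for HCT-116 and 7 for HT-29, and added irradiation in resistant cells gave 1 for DLD-1, 1 for HCT-116 and 3 for HT-29. Sensitive HT-29 against sensitive DLD-1 gave 7, and the labelled libraries gave 7 against sensitive and 1 against resistant HCT-116.

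With single libraries left out, resistant against sensitive gave 0 to 1 in DLD-1 and 2 to 3 in HCT-116 in uracil, 3 to 4 in HCT-116 in 5-FU, and 7 to 8 and 8 to 9 in HT-29 in uracil and 5-FU. The interactions gave 0 to 2 for DLD-1, 5 to 6 for HCT-116 and 3 to 5 for HT-29, 5-FU in sensitive HT-29 gave 1 to 2, the labelled libraries against sensitive HCT-116 gave 3 to 4, and the difference between lines gave 4 to 5. Other counts stayed as reported. The cause of these changes was not tested. Over all genes, DESeq2 called fewer than edgeR after added irradiation in resistant cells, 14 against 31 in DLD-1, 2 against 6 in HCT-116 and 67 against 103 in HT-29 as labelled. Isoform shares taken from estimated counts moved by more than the replicate SD in all 54 values. CDH2 and SNAI2, and in DLD-1 and sensitive HT-29 also VIM and ZEB1, had few counts, which limits the precision of their values.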
